A study of Mus musculus with 12 samples.

Results

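The immediate early genes *Fos*, *Fosb*, *Jun*, *Junb*, *Atf3*, *Egr1*, *Egr2*, *Egr3*, *Ier2* and *Dusp1* were followed in embryonic mouse hearts with and without HIRA, a chaperone of the histone variant H3.3. They were chosen by name, with earlier results of these data known, and all 10 were found among the 20368 genes of the deposited expression table. The 12 RNA-seq libraries were made from hearts of CD1 embryos, with 3 libraries in each of 4 groups. Control hearts were Mesp1Cre;Hira+/fl and mutant hearts were Mesp1Cre;Hira-/fl, and both genotypes were collected at E11.5 and at E12.5. All 4 groups therefore carried the Mesp1Cre driver and a floxed *Hira* allele, and the mutants had a constitutive null allele in place of the wild type one. Because Cre is made from the *Mesp1* locus in early cardiogenic mesoderm, cells of the heart from other lineages keep their floxed allele, and the hearts were whole tissue that had been kept frozen while the embryos were genotyped. Nothing in the labels states more of the replicates than that they are separate samples, so the p-values below measure the spread between these samples. Each library is called a heart below, though the number of hearts in a library is not given.

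Immediate early genes are transcribed within minutes of a growth factor, stretch, hormone or stress signal, without a need for new protein synthesis. MAP kinases, acting through SRF with the ELK factors and through CREB, turn on promoters that are already poised. The FOS, JUN and ATF proteins pair through leucine zippers to form the AP-1 family of factors, the EGR proteins bind DNA through zinc fingers, and DUSP1 is a phosphatase that switches MAP kinases off again. In the heart these genes are well known for their response to load and to hypertrophic signals, and their transcripts are short lived, so a level in frozen tissue can also carry the handling of that tissue.

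Their promoters are shown here because levels of the 7 genes tested correlated across libraries, as described further on. The 7 genes with a promoter window are not the same set. *Fosb* and *Egr2* have windows and were not tested, while *Egr1* and *Ier2* were tested and have none. RefSeq promoter windows on GRCm38.p6 were at hand for 7 of the 10 genes in 11 windows, and the 250 bases before each start were searched on both strands for TGACGT, the core of the cyclic AMP response element bound by CREB and ATF proteins. TGACGT was found for 4 of the 7 genes, and in 6.47% of all 32851 promoter windows. A gene was counted if any of its windows held the letters, and *Egr2* has 5, so counts of genes and shares of windows are unlike measures. The full palindrome TGACGTCA, which contains it, was found for *Dusp1* alone of the 7, and in 1.55% of all windows. The related element TGACATCA, known from the *Jun* promoter, was in 2.93% of windows and the CArG box bound by SRF in 1.47%. The TATA box TATAAA, sought on the sense strand only, was in 7.59%. The AP-1 site TGAGTCA was in 4.46% of all windows and the run GAGAGAGA in 3.26%, and of the 7 genes none held the first and only *Egr2*, in 1 of its 5 windows, held the second. These matches are letters in a window and no record of binding.
Fos: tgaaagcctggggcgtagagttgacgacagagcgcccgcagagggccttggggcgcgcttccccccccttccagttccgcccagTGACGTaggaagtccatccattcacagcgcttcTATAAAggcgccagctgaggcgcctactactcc
Jun: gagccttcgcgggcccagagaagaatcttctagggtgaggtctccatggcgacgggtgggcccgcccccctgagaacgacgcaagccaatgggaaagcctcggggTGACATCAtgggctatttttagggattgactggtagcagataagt
Atf3: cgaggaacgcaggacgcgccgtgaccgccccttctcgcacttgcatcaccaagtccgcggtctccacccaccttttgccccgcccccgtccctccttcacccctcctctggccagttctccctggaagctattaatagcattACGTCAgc
Egr2: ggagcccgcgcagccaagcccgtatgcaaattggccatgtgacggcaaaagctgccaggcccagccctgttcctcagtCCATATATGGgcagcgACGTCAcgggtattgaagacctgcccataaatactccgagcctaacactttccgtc
Dusp1: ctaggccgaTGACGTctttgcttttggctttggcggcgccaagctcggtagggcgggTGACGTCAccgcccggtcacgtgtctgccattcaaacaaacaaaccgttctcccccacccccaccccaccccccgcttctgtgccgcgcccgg

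Each run is 150 bases, 5′ to 3′ on the strand of the gene, with the matches to TGACGT or its reverse complement, TGACGTCA, TGACATCA, TATAAA and the CArG box in capitals. The *Fos* run is chr12:85473740-85473889 on the + strand, with TGACGT beginning 66 bases and TATAAA 33 bases before the start, and it overlaps no annotated transcript of GENCODE vM21. The *Jun* run is chr4:95052223-95052372 on the - strand, with TGACATCA 45 bases before the start, and it lies within an intron of the antisense transcript *Junos*. The *Atf3* run is chr1:191183334-191183483 on the - strand, with the element 8 bases before the start, where its last 7 bases fall in an annotated 5′ UTR and the rest in an intron of a longer *Atf3* transcript. The *Egr2* run is chr10:67537719-67537868 on the + strand, in an intron of longer *Egr2* transcripts, and its CArG box begins 72 bases and its TGACGT match 56 bases before the start used. It was taken from the 5 windows of *Egr2* as the first that holds both motifs. The *Dusp1* run is chr17:26508523-26508672 on the - strand, from 200 to 51 bases before the start and within an intron of a longer *Dusp1* transcript, with TGACGT beginning 191 and TGACGTCA 143 bases before it. *Fosb* and *Junb* were in the promoter table and held none of the motifs searched. *Egr1*, *Egr3* and *Ier2* were not in it.

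*Hira* itself was counted over the whole gene, so its counts do not resolve the deleted exon. In the 3 control hearts of E11.5 it stood at 79.5, 86.2 and 68.6 CPM, read counts scaled for the depth of the library, against 73.7, 57.0 and 63.3 in the mutants. At E12.5 the values were 78.0, 86.5 and 60.7 CPM in controls and 79.7, 71.0 and 70.4 in mutants. Groups of both genotypes overlapped, and neither difference passed the edgeR test (adjusted p = 0.589 at E11.5, for a log2 fold change of -0.27 ± 0.14 SE, and 0.961 at E12.5, for -0.01 ± 0.12). Counts on genes ran from 11994148 to 17483982 per library. By Y-linked counts all 3 E11.5 controls were male, as was 1 library in each of the other 3 groups (E11.5 mutant 3, E12.5 control 3 and E12.5 mutant 1), so sex and genotype overlap at E11.5.

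The levels of the 10 genes were ordered per kilobase of gene. *Ier2*, a nuclear protein induced by growth factors, and *Jun*, the best known partner of the FOS proteins, were the most abundant with means over 12 libraries of 19.0 ± 4.53 and 18.7 ± 3.18 RPKM (CPM per kilobase of gene, SD, n = 12). *Dusp1* followed at 11.1 ± 1.04 and *Atf3*, a stress-induced partner of JUN, at 10.5 ± 2.02 RPKM. *Egr1* stood at 5.83 ± 2.40, *Junb* at 3.20 ± 0.789 and *Fos* at 3.19 ± 1.53 RPKM. Some neighbours in this order were not separated, since *Ier2* was above *Jun* in 7 of 12 libraries, *Dusp1* above *Atf3* in 7 of 12 and *Junb* above *Fos* in 9 of 12. Other neighbours kept their order in every library, with *Jun* above *Dusp1*, *Atf3* above *Egr1*, *Egr1* above *Junb* and *Fos* above *Fosb* in 12 of 12.

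*Fosb*, *Egr3* and *Egr2* were near the limit of what the libraries resolve, at means of 0.265, 0.259 and 0.143 RPKM. *Fosb* had 6 to 41 reads in a library, *Egr3* 1 to 12 and *Egr2* 3 to 13, and these 3 genes fell under the minimum mean of 0.5 RPKM used for testing. Counting error alone is large at such depths, and it is only a lower limit of the error. The other 7 genes had 53 (*Junb*) to 1188 reads (*Jun*) in a library and were tested in every comparison.

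The genes differed in how steady they were among hearts of the same genotype and stage. The SD of log2 CPM within groups was 0.454 for *Fos*, 0.438 for *Junb*, 0.353 for *Egr1*, 0.307 for *Ier2*, 0.273 for *Atf3* and 0.232 for *Jun*. *Dusp1* was the steadiest at 0.145, and the only one of the 7 under the median of 0.182 over 12270 genes. Low levels spread more by counting alone, but each of the other 6 also stood above the median SD of the 500 genes nearest to it in level, which was 0.265 beside *Fos*, 0.277 beside *Junb* and 0.148 beside *Jun*. The SE of each comparison below carries this spread.

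**Figure D1:**
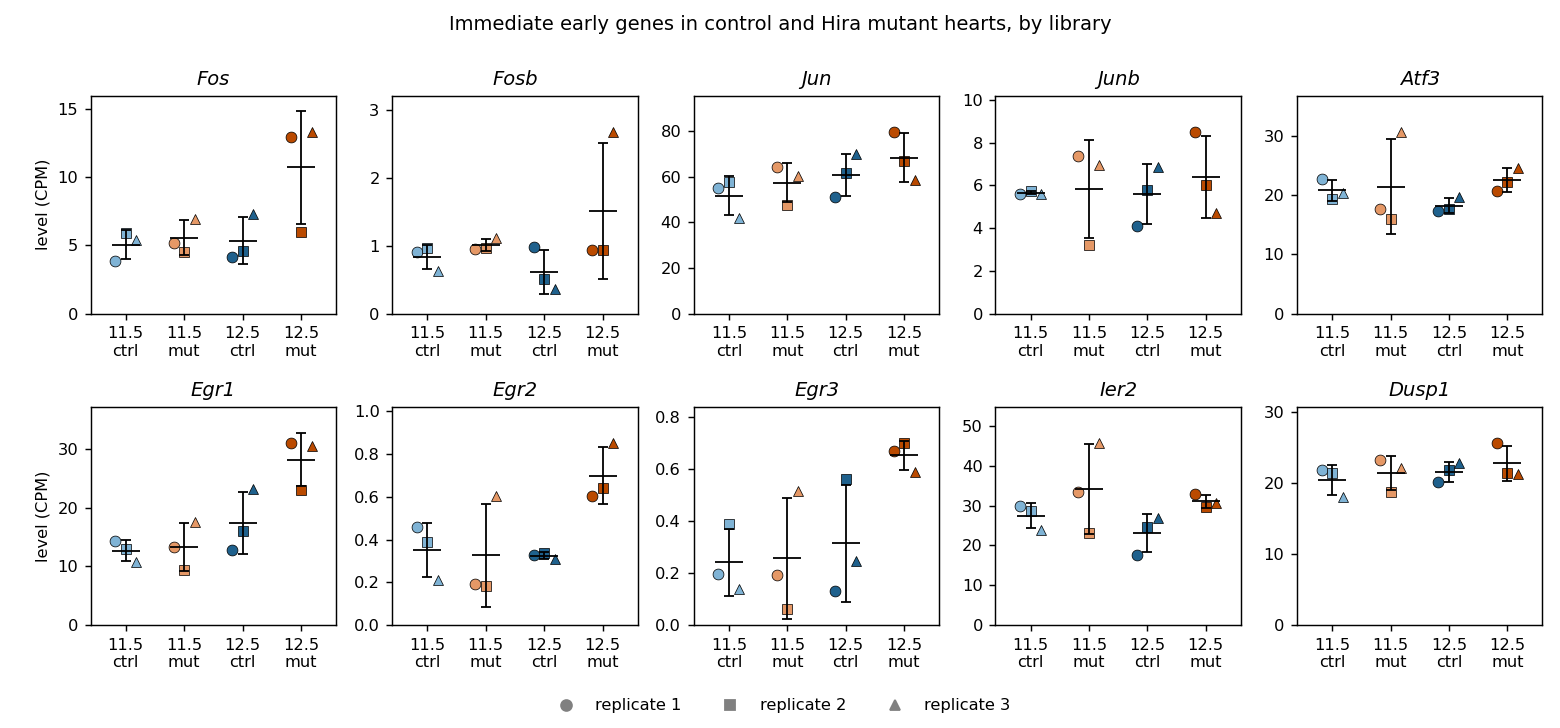
Level of each immediate early gene in CPM (vertical axis, from 0) in each of the 12 libraries, by stage and genotype, with symbols for replicates 1 to 3 and bars for the mean ± SD of each group (n = 3). *Fos* and *Egr1* stand highest in E12.5 mutants, where 2 of the 3 hearts have 12.9 and 13.3 CPM of *Fos*.

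At E11.5 control and mutant hearts overlapped for every one of the 10 genes. *Fos*, the prototype of the class, stood at 3.86, 5.88 and 5.40 CPM in controls and at 5.19, 4.50 and 6.97 in mutants. *Egr1*, the most studied EGR factor, stood at 14.4, 13.0 and 10.7 against 13.3, 9.30 and 17.5 CPM. *Ier2* stood at 29.9, 28.6 and 24.0 against 33.5, 23.1 and 45.7 CPM. In each of these genes the third mutant heart was the highest of its group and the second the lowest, with all 3 controls between them for *Ier2* and *Egr1*. Over all 10 genes the second mutant heart was the lowest mutant for 9, and the third was the highest for 7.

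None of the 7 genes tested at E11.5 was called at an adjusted p of at most 0.05 with a fold of at least 1.5, and none had an unadjusted p under 0.05. Among all genes tested 0.115% were called, and 4.83% had an unadjusted p under 0.05 with the mutant higher. DESeq2, which called 2.03% of all genes, called none of the 7 either. Fitted log2 fold changes ran from 0.04 (*Atf3*, SE 0.24, adjusted p = 0.981) to 0.31 (*Ier2*, SE 0.23, adjusted p = 0.765), with a median of 0.07 against -0.01 over all genes. All 7 fitted values were positive, as were 48.4% of all genes. Without the third mutant heart the median was -0.06 and 3 of the 7 were positive. Sex as a term leaves that 1 male mutant heart at E11.5 to be set against 3 male controls. The median was then 0.46, with log2 fold changes of 0.73 for *Ier2* (SE 0.22) and 0.56 for *Atf3* (SE 0.18). These values rest on that 1 mutant heart.

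At E12.5 *Fos* and *Egr1* had the largest differences of the 7. *Fos* stood at 4.16, 4.57 and 7.31 CPM in controls and at 12.9, 5.95 and 13.3 in mutants, with means of 5.35 ± 1.72 against 10.7 ± 4.15 (SD, n = 3). *Egr1* stood at 12.8, 16.1 and 23.2 CPM in controls and at 31.0, 23.0 and 30.6 in mutants, with means of 17.3 ± 5.30 against 28.2 ± 4.51 (SD, n = 3). For both genes the second mutant heart fell within the range of the controls and the third control was the highest of its group. The fitted log2 fold change was 1.01 for *Fos* (SE 0.30, adjusted p = 0.0824) and 0.71 for *Egr1* (SE 0.19, adjusted p = 0.0574), so that both were past the fold and short of the adjusted threshold.

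The calls of *Fos* and *Egr1* lay close enough to the threshold to depend on the fit. Both were called by DESeq2 (adjusted p = 0.0108 for *Fos* and 0.00512 for *Egr1*), without the filter on low genes (0.0342 and 0.0193), with sex as a term (0.0441 and 0.0183), with the replicate number as a block (0.0198 and 0.0139) and without the third control heart (0.0406 and 0.00883). *Fos* was also called without the second mutant heart (adjusted p = 0.0213). With any of the other libraries left out neither was called. Over 13 other fits the log2 fold change of *Fos* ran from 0.82 to 1.31 with adjusted p from 0.0108 to 0.262, and that of *Egr1* from 0.54 to 0.98 with adjusted p from 0.00512 to 0.214.

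*Ier2* and *Atf3* differed less but without overlap. *Ier2* stood at 17.7, 24.6 and 27.0 CPM in E12.5 controls and at 32.9, 29.7 and 30.6 in mutants, which the fit gave as 0.43 on the log2 scale (SE 0.14, adjusted p = 0.0992). *Atf3* stood at 17.3, 17.6 and 19.7 against 20.7, 22.2 and 24.6 CPM, given as 0.32 (SE 0.11, adjusted p = 0.123). Every mutant heart was above every control heart for both, while neither reached a fold of 1.5. *Ier2* and *Atf3* make 2 of the 7 genes tested, beside 12.1% of all genes tested whose mutant hearts were all above the controls.

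The JUN partners and the phosphatase were closest to the controls. *Jun* stood at 51.1, 61.4 and 69.7 CPM in controls and 79.5, 67.0 and 58.3 in mutants, given as 0.18 on the log2 scale (SE 0.13, adjusted p = 0.463). *Junb* was fitted at 0.20 (SE 0.25, adjusted p = 0.69), with 4.09 to 6.88 CPM in controls and 4.71 to 8.50 in mutants. *Dusp1* was fitted at 0.09 (SE 0.11, adjusted p = 0.678), with 20.1 to 22.8 CPM in controls and 21.3 to 25.6 in mutants. All 3 overlapped between genotypes, and without the first mutant heart the fitted values of *Junb* and *Dusp1* were below 0. *Jun* shares 232 exonic bases with the antisense gene *Junos*, and as the strand used in counting is not given, reads of the 2 cannot be told apart.

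The 3 scarce genes leaned the same way in the fit without a filter. *Egr2* had 5, 6 and 5 reads in E12.5 controls and 9, 11 and 13 in mutants. *Egr3* had 2, 10 and 4 reads against 10, 12 and 9, and *Fosb* had 15, 9 and 6 against 14, 16 and 41. In CPM every mutant heart was above every control heart for *Egr2* and *Egr3*, while *Fosb* overlapped and its mean rested on the third mutant heart. For *Egr3* the lowest mutant, at 0.589 CPM from 9 reads, was just above the highest control, at 0.564 CPM from 10 reads. The share of 12.1% without overlap was taken over tested genes, and none was counted for genes as scarce as these. The log2 fold changes were 1.10 for *Egr2* (SE 0.56, adjusted p = 0.315), 1.02 for *Egr3* (SE 0.61, adjusted p = 0.408) and 1.30 for *Fosb* (SE 0.50, adjusted p = 0.161).

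**Figure D2:**
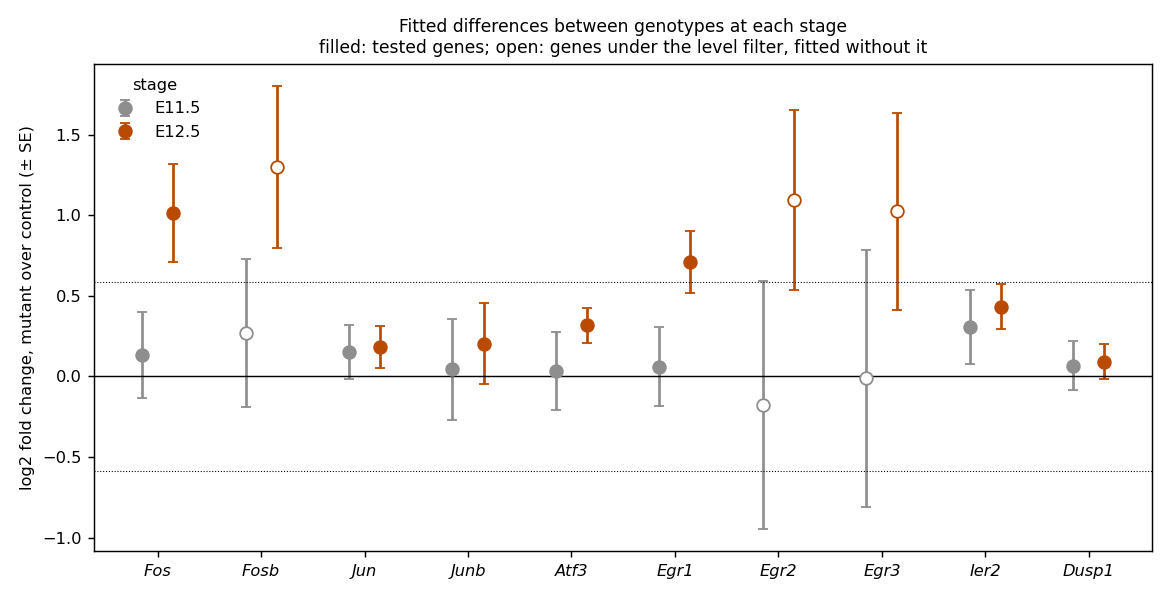
Fitted log2 fold change of mutant over control hearts (vertical axis, ± SE) for each gene at E11.5 and E12.5, 3 libraries a group, with dotted lines at a fold of 1.5. At E12.5 *Fos* at 1.01 and *Egr1* at 0.71 lie past the line among the tested genes (filled), while open points are the scarce genes fitted without the filter.

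Counted together, none of the 7 tested genes was called at E12.5 in the edgeR fit, beside 3.03% of all genes, and DESeq2 called 2, beside 3.56%. An unadjusted p under 0.05 with the mutant higher was found for 4 of the 7 (*Fos*, *Egr1*, *Atf3* and *Ier2*), beside 11.2% of all genes tested. All 7 fitted values were positive, beside 49.6% of all genes, and their median log2 fold change was 0.32 against 0.00 over all genes. The genes share libraries and correlate, as shown further on, so they are not 7 separate observations. In whole hearts a transcript that is made more in each cell and a larger number of cells that make it cannot be told apart.

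The exact permutation test of a single gene against both directions, over 3 hearts and 3, cannot go under p = 0.1. It gave 0.1 for *Atf3* and *Ier2* and, by permutation too, 0.2 for *Fos* and *Egr1* at E12.5.

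The difference between the stages was tested directly over all 12 libraries. The mutant effect at E12.5 less that at E11.5 was 0.87 on the log2 scale for *Fos* (SE 0.45, adjusted p = 0.954) and 0.64 for *Egr1* (SE 0.34, adjusted p = 0.954). *Atf3* differed by 0.27 (SE 0.28) and the other 4 by 0.01 to 0.15. None of the 7 had an unadjusted p under 0.05, as 4.5% of all genes did, and 0% of genes were called by edgeR. An E12.5 effect that differs from E11.5 was therefore not detectable for any of the 7 with 3 hearts a group. Without the third E11.5 mutant heart *Fos* (1.06, SE 0.47, adjusted p = 0.275), *Egr1* (0.88, SE 0.33, adjusted p = 0.219) and *Atf3* (0.61, SE 0.17, adjusted p = 0.174) had unadjusted p under 0.05. So did 2133 of all 12274 genes tested in that fit, against 552 of 12270 with every library kept. The median of the 7, which was 0.15 in the fit above, was below 0 with sex as a term (-0.10), without the second E11.5 mutant (-0.08) and without the first E12.5 control (-0.02), with 3 of 7 positive in each. With sex as a term *Fos* differed by 0.54 (SE 0.41) and *Egr1* by 0.36 (SE 0.28).

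From E11.5 to E12.5 no stage difference of these genes passed the test in control hearts. No member was called and none had an unadjusted p under 0.05 in controls, beside 5.31% and 32.7% of all genes, and DESeq2 called none. The largest fitted stage difference in controls was 0.45 for *Egr1* (SE 0.21, adjusted p = 0.174), and *Ier2* was at -0.25 (SE 0.16, adjusted p = 0.317). In controls sex and stage overlap as well, since the E11.5 hearts were all male. Sex as a term leaves 1 male E12.5 control to be set against 3 male E11.5 controls. The median of the 7 then went from 0.08 to 0.29, with *Egr1* at 0.87 (SE 0.22) and *Jun* at 0.44 (SE 0.19). Without the first E12.5 control these 2 genes had unadjusted p under 0.05, as did 2636 of all 12235 genes tested in that fit. They stood at 0.62 (SE 0.20, adjusted p = 0.153) for *Egr1* and 0.35 (SE 0.15, adjusted p = 0.222) for *Jun*.

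In mutant hearts *Egr1* had a log2 difference of 1.10 between E12.5 and E11.5 (SE 0.23, adjusted p = 0.106), going from 13.3, 9.30 and 17.5 CPM to 31.0, 23.0 and 30.6 with no overlap. *Fos* had one of 0.97 (SE 0.32, adjusted p = 0.365), and 1 of its E12.5 hearts lay inside the range of the earlier ones. Those were the 2 of 7 with an unadjusted p under 0.05, beside 5.42% of all genes in that direction, and *Egr1* was the only one of the 7 without overlap, beside 8.96%. None of the 7 was called by edgeR, beside 0.523% of all genes. *Egr1* was called by DESeq2 (adjusted p = 0.0019, with 1.85% of all genes called), without the filter (0.0408) and without the third E11.5 mutant heart (0.0243). *Ier2* and *Atf3* were at -0.12 (SE 0.21) and 0.09 (SE 0.23). The stage and genotype comparisons share the E12.5 mutant libraries, so the high *Egr1* there enters both.

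Levels differed from heart to heart within groups as well. The summed level of the 10 genes, of which *Jun*, *Ier2*, *Egr1*, *Atf3* and *Dusp1* make up most, was 155, 153 and 127 CPM in E11.5 controls, 166, 124 and 192 in E11.5 mutants, 129, 153 and 178 in E12.5 controls and 213, 177 and 188 in E12.5 mutants. At E12.5 the lowest mutant sum of 177 lay just under the highest control sum of 178. At E11.5 the mutant sums ran from 124 to 192 CPM, wider than the step between the group means of 145 in controls and 161 in mutants. At E12.5 the means were 153 CPM in controls and 193 in mutants, beside ranges of 129 to 178 and 177 to 213. In each of the 3 groups that hold both sexes the 1 male heart had the highest sum (192, 178 and 213 CPM), though the all-male E11.5 controls reached only 155. The male heart was the highest of its group for 7, 7 and 5 of the 10 genes in these 3 groups, and the part of sex was not tested beyond the fits with a sex term.

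**Figure D3:**
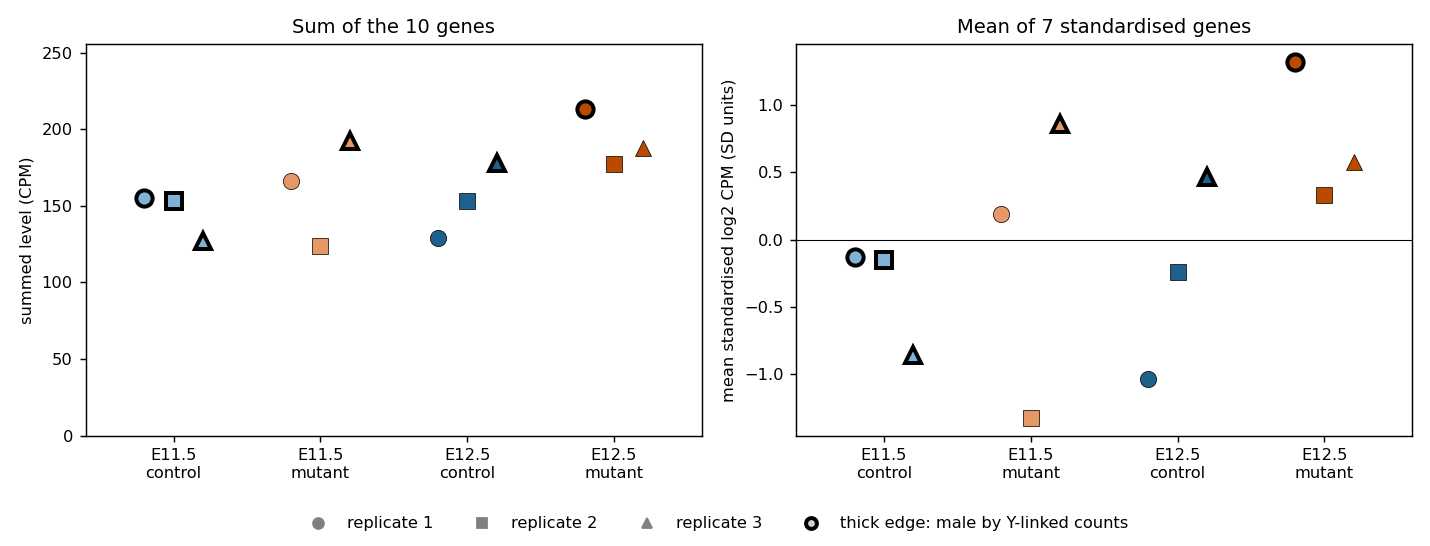
Summed level of the 10 genes in CPM (left) and mean of the 7 tested genes after each was standardised over the 12 libraries (right, in SD units) for each library, with thick edges for hearts that were male by Y-linked counts. The sums run from 124 to 213 CPM and libraries of 1 group lie far apart, the E11.5 mutants most.

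Across the 12 libraries all 21 pairs of the 7 genes correlated positively in log2 CPM, with a median Pearson's r of 0.51 (0.20 to 0.94). With each group centred on its own mean, which removes genotype and stage, all 21 stayed positive and the median was 0.70 (0.18 to 0.95), against 0.00 over all pairs of 12270 genes. The closest pair was *Jun* and *Dusp1* (0.94, or 0.95 centred), the second was *Fos* and *Egr1* before centring (0.83), and *Egr1* and *Ier2* stood at 0.92 after it. *Atf3* was linked most to *Ier2* (0.75) and least to *Jun* (0.20). These are descriptions over 12 hearts that share library depth, stage and genotype, and no test was attached to them.

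**Figure D4:**
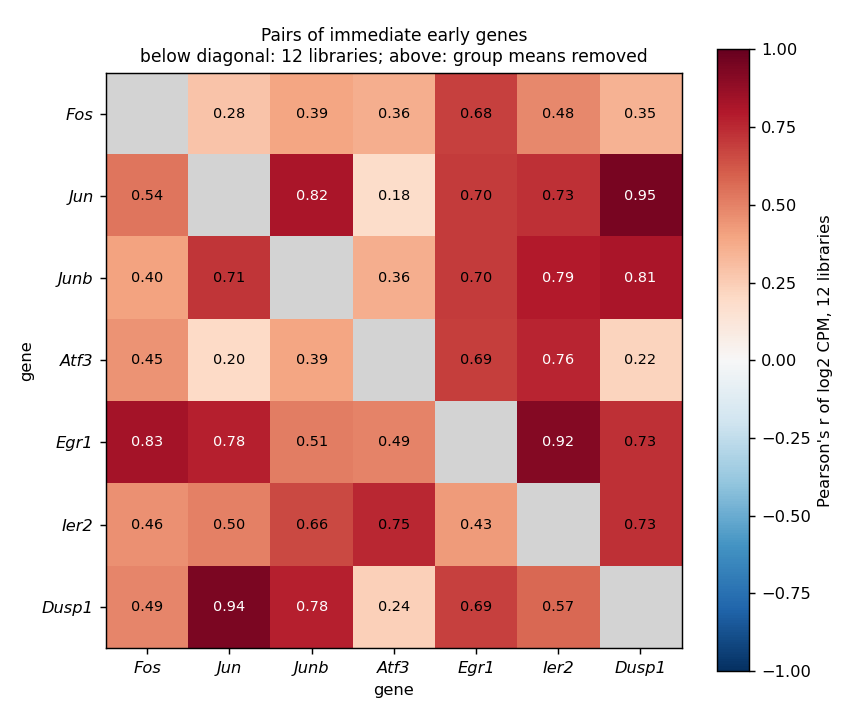
Pearson's r of log2 CPM for each pair of the 7 tested genes over 12 libraries, below the diagonal as measured and above it with group means removed, on a colour scale from -1 to 1. Every cell is above 0, with *Jun* and *Dusp1* the closest pair at 0.94 and 0.95.

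Outside the 10, the genes whose log2 CPM over the 12 libraries was most like the mean of the standardised members were *Irf2bp1* (r = 0.87), *Pmepa1*, *Ptp4a3*, *Rfx8*, *Zfp7*, *Irs1*, *Trim47*, *Zfp865*, *Jund* and *Irf2bp2* (0.83). *Jund* is the JUN family subunit not counted among the members, and its r was 0.83. With groups centred the 10 closest were *Vegfc* (r = 0.98), *Zfp341*, *Sncb*, *Gm21981*, *Muc2*, *Gatsl3*, *Cdc42ep1*, *Cited2*, *Pltp* and *Gnb1* (0.91). The 2 lists share no gene, and with 12 libraries and so many genes high values are found by selection alone.

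The wider class of primary response genes, which answer the same signals, stood higher in mutant hearts at E12.5. Of 35 further genes, 34 were in the table and 30 were tested. Of these, 27 were fitted higher in mutants, beside 49.6% of all genes, with a median log2 fold change of 0.36 against 0.00 over all genes. *Ier3*, a survival factor induced by stress, *Nr4a1*, an orphan nuclear receptor, and *Gadd45g*, a stress sensor of the p38 and JNK pathways, rose past both thresholds, which is 3 of 30 beside 1.64% of all genes in that direction, and none fell. *Ier3* went from 9.66 ± 0.208 to 19.3 ± 5.82 CPM (SD, n = 3), which the fit gave as 1.01 on the log2 scale (SE 0.19, adjusted p = 0.013). *Gadd45g* stood at 20.6 ± 7.35 CPM in controls and 38.6 ± 3.36 in mutants, which the fit gave as 0.92 (SE 0.20, adjusted p = 0.0255). *Nr4a1* stood at 16.8 ± 2.42 and 25.5 ± 2.62 CPM, which it gave as 0.61 (SE 0.13, adjusted p = 0.0203). For all 3 every mutant heart was above every control heart, as for 12 of the 30, beside the 12.1% of all genes. This list, too, was chosen with earlier results known, so its counts are a description.

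An unadjusted p under 0.05 with the mutant higher was found for 15 of the 30, beside the 11.2% of all genes. In fits with 1 library left out, a comparison chosen after seeing the data, 1 to 4 of the 30 were called higher and 12 to 19 had an unadjusted p under 0.05. The count fell to 1 without the first control, without the second control and without the first mutant heart, and to 1 in the fit over all 12 libraries. *Ier3* was called in each of the other fits but that without the first control (adjusted p = 0.0586). *Gadd45g* was not called over all 12 libraries (adjusted p = 0.0847), nor without the second control (0.0789) or any of the mutant hearts (0.0611 to 0.0648). *Nr4a1* was not called over all 12 libraries (0.0861) or by limma, where it was short of the fold. It was also not called without the first control (0.0797), the second control (0.0772) or the first mutant heart (0.0809). At E11.5 the same 30 genes were also mostly higher, 24 of 30 with a median of 0.21, beside 48.4% of all genes. Of the 30, 10 were higher without overlap, beside 7.73% of all genes. With sex as a term, as sex and genotype overlap at E11.5, 22 of the 30 were higher with a median of 0.27. None was called there by edgeR, and DESeq2 called 1, beside 2.03% of all genes. In the edgeR fit 8 had an unadjusted p under 0.05 with the mutant higher, beside 4.83% of all genes. All 24 were among the 27 higher at E12.5, an overlap that such counts out of 30 leave little room to vary. The share of all genes higher at both stages was not counted.

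**Figure D5:**
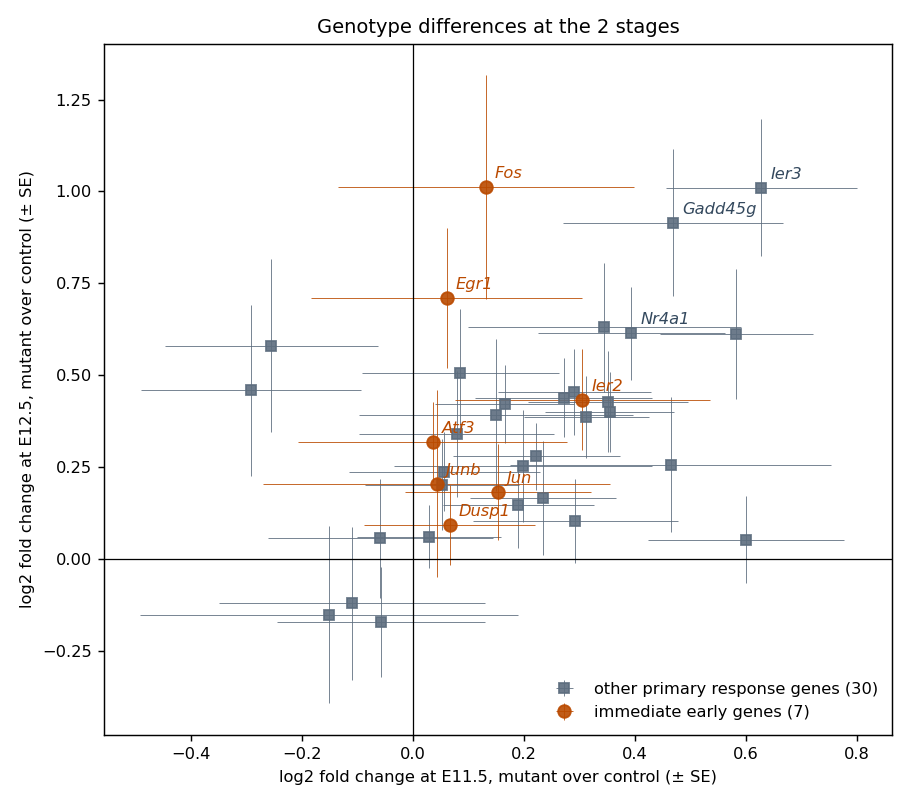
Log2 fold change of mutant over control hearts at E11.5 (horizontal axis) and E12.5 (vertical axis), each ± SE, for the 7 tested immediate early genes (circles) and 30 other primary response genes (squares), with the 3 called at E12.5 named. *Fos* at 0.13 and 1.01 and *Egr1* at 0.06 and 0.71 lie near 0 at E11.5, while *Ier3* at 0.63 and 1.01 is high at both stages.

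The other parts of the pathway gave no call between genotypes in the main edgeR fits. Of 11 tested AP-1 and ATF subunits outside the members none was called in either genotype comparison, with *Atf5*, an ATF factor of stress signalling, fitted at 0.57 on the log2 scale in E12.5 hearts (SE 0.12, adjusted p = 0.0226) but under the fold of 1.5. *Fosl2*, a FOS subunit, was at 0.34 (SE 0.10, adjusted p = 0.0809). Of 11 ERK feedback inhibitors and EGR corepressors none was called, with *Dusp6*, the ERK phosphatase, at 0.33 (SE 0.09, adjusted p = 0.068) and *Nab2*, a corepressor induced by EGR1, at 0.32 (SE 0.09, adjusted p = 0.068) at E12.5. Of 18 MAP kinases and SRF, ELK and CREB factors none was called, and their median log2 fold change was 0.06 at E11.5 and 0.01 at E12.5. DESeq2 called no gene of the 3 lists by genotype either. At E12.5, 1 subunit was called higher in mutants without the third control heart, and 1 without the third mutant heart. In the edgeR fit of E12.5, 3 of 11, 4 of 11 and 3 of 18 of their genes had unadjusted p below 0.05 in either direction, beside 21.3% of all genes. *Dusp4*, another ERK phosphatase, was the only gene of the 3 lists called with stage in the main edgeR fits. It fell in controls over that day (fitted value -0.74, SE 0.15, adjusted p = 0.0243). It was not called with sex as a term (adjusted p = 0.328), nor without the third E11.5 control (0.0595) or the first (0.119) or second (0.0636) E12.5 control. In the same comparison DESeq2 and the replicate block each called 1 subunit and 1 gene of the kinase list higher. The fit without the filter and limma each called 1 subunit higher. Without the second E11.5 control each of the 3 lists had 1 gene called higher, and the kinase list also had 1 called lower.

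Transcripts that mark some other cells of the heart differed with genotype in the same libraries. Among all genes tested at E12.5, 1.64% were called higher in mutants and 1.39% lower. At E12.5 the summed level of 7 macrophage markers in the table was 82.6 to 106 CPM in controls and 48.0 to 61.5 in mutants, and 2 of 5 tested were called lower (*Csf1r* and *Lyz2*). The 6 erythroid markers summed to 3810 to 6150 CPM in controls and 2070 to 2600 in mutants, and 5 of 6 were called lower (*Hba-a1*, *Hba-x*, *Hbb-y*, *Hbb-bh1* and *Slc4a1*). The 7 cardiomyocyte markers, at 17300 to 19200 against 16500 to 22100 CPM, and the 6 endothelial markers, at 1130 to 1170 against 1070 to 1320 CPM, overlapped with none called. Of 6 epicardial markers 1 was called higher (*Msln*), and of 5 cushion markers 1 was called lower (*Postn*). The cushion markers summed to 1150 to 1720 CPM in controls and 1010 to 1130 in mutants, with no overlap. At E11.5 the sums did not overlap either, at 1430 to 1630 against 1080 to 1380 CPM, with none called. *Vcan* and *Postn* make up most of these sums. At E12.5 *Postn* ran from 452 to 628 CPM in controls and from 303 to 414 in mutants. *Vcan*, *Twist1*, *Sox9* and *Prrx1* each overlapped at E12.5, and at E11.5 each of the 5 did. With stage, 3 macrophage markers (*Csf1r*, *C1qa* and *C1qb*) rose in mutants, *Msln* rose in both genotypes, *Wt1*, *Upk3b* and *Upk1b* fell in controls, *Hbb-bh1* fell in both, *Hba-x* and *Slc4a1* fell in mutants and *Hba-a1* rose in controls.

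Heat shock and liver genes were read as marks of handling and of carried-over tissue. The 6 heat shock genes summed to 2830 to 2910 CPM in E12.5 controls and 2890 to 3010 in mutants, with none called. At E11.5 they summed to 3020 to 3980 against 3030 to 3230 CPM. *Hspa8* makes up most of these sums, with means of 2420 CPM in E12.5 controls and 2460 in mutants, so they say little of the other genes. *Hspa1a* stood at 3.26 ± 1.85 CPM in E12.5 controls and 3.77 ± 1.38 in mutants, and *Hspa1b* at 2.18 ± 0.487 and 2.72 ± 0.719 (SD, n = 3). The 4 liver markers summed to 3.56 to 5.41 CPM in E12.5 controls and to 49.1, 2.74 and 13.5 in mutants, with none called, all 4 fitted higher and 3 with an unadjusted p under 0.05. At E11.5 they reached 54.6 CPM in the first mutant heart and 24.6 in the first control. Without the first E12.5 mutant heart the log2 fold change was 0.85 for *Fos* (SE 0.34, adjusted p = 0.235) and 0.63 for *Egr1* (SE 0.22, adjusted p = 0.174). At E11.5 macrophage markers (28.8 to 34.8 CPM in mutants, 64.8 to 108 in controls) and epicardial markers (305 to 428 against 478 to 736 CPM) did not overlap between genotypes. There 1 macrophage marker was called lower (*C1qb*), beside 0.0656% of all genes, and no epicardial one, while none of the immediate early genes was called. No marker in the table was at 0 in all 12 libraries. The part of cell numbers and of handling in the levels of the immediate early genes was not tested.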

How the data were processed

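RNA of 12 heart samples was sequenced, and the submitters' processing notes name Bowtie2 (version 2), mm10 and DESeq. The counting program, annotation and strand are not given in the sources used here. The authors deposited a table named RPKM whose scores are each a read count multiplied, not divided, by gene length and by a constant of the library. Their comparison tables hold expected counts, deposited as the mean raw counts of 3 libraries, from which the constants were solved. Whole counts came out for 17827 genes, with a largest distance of 5.09e-10 from a whole number, and 1597 genes had none. The authors' deposited fold changes, z scores and p-values were not used.

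Counts were tested in R 4.3.3 with edgeR 4.0.16 (quasi-likelihood, TMM) on genes averaging 0.5 RPKM or more (Benjamini-Hochberg adjusted p of at most 0.05, fold of at least 1.5). DESeq2 1.42.0 and limma 3.58.1 on log2(RPKM + 0.5) were alternatives, and the fit was tested on simulated data. CPM and RPKM use TMM-scaled library sizes over 12 libraries. The genes and lists were chosen with earlier results of these data known. Named are all members, *Hira*, list genes past the thresholds, and the 10 genes most like the members. Others were named after their values were seen, and 1 marker is not reported here. A heart was male at 100 or more counts of 4 Y-linked genes. Promoter windows are RefSeq's on GRCm38.p6.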

Additional observations from a re-analysis of the deposited data

How the results depend on the processing

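Called immediate early genes at E12.5 went from 0 to 2 without the filter on low values, with DESeq2, with sex as a term and with the replicate block, and ranged from 0 to 2 with 1 library left out. In mutants from E11.5 to E12.5 they went from 0 to 1 without the filter and with DESeq2, and ranged from 0 to 1 with 1 library left out. They stayed at 0 in each fit run at E11.5, for the difference between stages and in controls between stages. Of the fitted values of single members under the alternatives, 429 kept sign and side, 14 passed the thresholds anew and 47 changed sign without a call.

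Over all genes at E11.5 the 14 calls became 73 without the filter, 248 with DESeq2, 229 with all 12 libraries in one fit, 96 with the replicate block, 39 with sex as a term and 27 with limma, and 0 to 15 with 1 library left out. At E12.5 the 371 became 628 without a fold threshold and 127 with all 12 libraries, and 186 to 383 with 1 left out. The difference between stages went from 0 to 41 with DESeq2 and 0 to 10 with 1 left out (10 without the third E11.5 mutant). In controls between stages 650 became 1390 without a fold threshold, 345 with all 12 libraries and 19 with sex as a term, and 45 to 1407 with 1 left out. In mutants 64 became 119 without the filter, 226 with DESeq2, 124 with all 12 libraries and 26 with the block, and 1 to 123 with 1 left out. The cause was not tested.

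The labels do not say whether replicate numbers pair the hearts. Same-numbered deviations correlated at 0.02, 0.38 and 0.25 at E11.5 and at 0.04, 0.06 and 0.08 at E12.5. Differently numbered ones ran from -0.406 to 0.193 at E11.5 and from -0.074 to 0.025 at E12.5, below all but the 0.02. Between stages same-numbered ones stood at -0.12, -0.01 and 0.14 in controls and at 0.05, -0.02 and -0.02 in mutants. The others there ran from -0.165 to 0.178 and from -0.048 to 0.061. Pairing was not tested beyond the fits with a replicate block. Depth limits *Fosb*, *Egr2* and *Egr3*, which were not tested.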
